A study of Sus scrofa with 80 samples.

Results

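The homeobox and patterning transcription factors of the Göttingen minipig were followed through its tissues and through postnatal growth. Genes were taken by name when they belonged to the HOX clusters A to D or to the PAX, LHX, NKX, DLX, OTX, EMX, IRX, MEIS, PBX, POU, ZIC or engrailed (EN) families, or to the sine oculis homeobox family that holds SIX3. The rule selected 96 genes of the 23723 genes with probes on the array, 32 of them HOX genes and 64 of the other families, and it used no measured value. Genes whose probes are named only by transcript were missed by the rule, among them HOXA10, HOXC5, HOXC6, HOXC12, HOXC13, LHX2, POU2F2 and POU3F1. RNA of untreated animals was hybridized to 80 one-colour Agilent arrays designed for the minipig. At 1 week, 4 weeks, 2 months and 4 months, 1 male and 1 female sample were measured of cerebellum, cortex, hypothalamus, liver, kidney, spleen and bone marrow, together with 1 testis and 1 ovary sample at each age. A 2-year-old male added 1 sample of each tissue except the ovary, and 1 sample of renal pelvis, with the kidney repeated on 8 arrays that were averaged to 1 sample. The 2-year-old male had been kept at another site and on other feed since its first months. The labels name no genotype and no treatment for any group, all animals are Göttingen minipigs, and whether tissues of 1 age and sex came from 1 animal is not stated.

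Homeobox proteins bind DNA through a conserved helix-turn-helix fold and specify where in the embryo a cell lies and what it becomes. HOX genes lie in clusters whose gene order follows the head-to-tail order of the body regions that use them, so that forebrain and midbrain form without HOX expression while hindbrain, spinal cord and trunk organs carry a HOX code. Members outside the clusters mark other territories, such as OTX and EMX in the forebrain, EN at the midbrain-hindbrain boundary, PAX2 in the kidney and NKX2-5 in heart and spleen.

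Levels are given as log2 of the normalized intensity, on which a difference of 1 is a 2-fold change. Tissues are compared only within a gene, because probes differ in brightness. A gene was taken as well above background on an array when the scanner software called at least 1 of its spots so. It was counted as measured in a tissue when this held in every sample of that tissue up to 4 months. The level of the 95th percentile of the negative control spots lay between 2.34 and 3.45 on the 80 arrays, so that values near 3 or lower lie in the background. The material was bulk tissue, in which fewer cells of a type and less RNA per cell cannot be told apart. The label of each organ was checked with marker genes. The liver carried ALB at a median of 9.60 and CYP1A2 at 11.82, the kidney SLC12A1 at 10.46, the cerebellum CBLN1 at 14.1, the cortex TBR1 at 6.33, the spleen CD79B at 12.15 and the bone marrow KLF1 at 11.89. Of the 8 hypothalamus markers listed, 5 were on the array, of which AVP, PMCH and GHRH were well above background in no hypothalamus sample, and OXT and HCRT lay at much the same level in every tissue, so the label of the hypothalamus could not be checked with them. Of the 3 thalamus markers listed, CALB2 lay at 8.91 in the hypothalamus and at 5.57 in the cortex, TCF7L2 at 4.29 and 2.97, and PRKCD at 3.49 and 3.59 with no array of either region above background.

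Of the 96 genes, 66 (68.8%) were measured in at least 1 of 9 tissues, against 73.8% of all genes, and 22 (22.9%) in all 9, against 42.0% of all genes. The remaining 30 comprised 21 that passed only in some samples and 9 that were never well above background up to 4 months, among them DLX1, HOXA3, LHX1, LHX5, PAX6, POU3F4, POU5F2 and SIX6. By this rule, which asks for 8 samples in most tissues and 4 in the gonads, kidney held the most measured members, 50 (52.1%, against 55.4% of all genes), of which 23 were HOX genes. Against the detection limit of the negative controls, ovary held the most, 69, and kidney 61. The other counts by the first rule were 41 in cerebellum, 34 in cortex, 40 in hypothalamus, 28 in liver, 39 in spleen, 40 in bone marrow, 41 in ovary and 29 in testis, shares of 29.2 to 42.7% where 52.7 to 61.1% of all genes were measured. Among the 66 measured members a median of 90.9% of the variance over the samples of cerebellum, cortex, hypothalamus, liver, kidney, spleen and bone marrow lay between tissues, against 79.7% for all measured genes.

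Of the 32 HOX genes 23 were measured in at least 1 tissue, and kidney was the tissue with the highest median for 21 of these 23, the others being HOXB2 and HOXD11. The number of HOX genes measured was 6 in cortex, 8 in cerebellum, 8 in hypothalamus, 9 in testis, 11 in liver, 14 in ovary, 15 in spleen, 16 in bone marrow and 23 in kidney. HOXB4, HOXB5, HOXB7, HOXD3 and HOXD10 were measured in all 9 tissues, a rule that 1 bright probe can meet. The brain means of HOXB4, HOXB5 and HOXB7 were 3.76, 3.76 and 3.80, close to the highest control level of 3.45. Probes of HOXB5, HOXB7 and HOXD10 differed in level by 2.23, 1.89 and 3.28. The genes at the tail end of the clusters, groups 11 to 13, differed among themselves. HOXD12 and HOXD13 had medians of 1.96 to 2.37 and HOXC11 of 1.85 to 2.96 in the 9 tissues. HOXD11 was above background on all 8 arrays of liver (median 5.80), kidney (5.01) and spleen (4.84), HOXA11 on 6 of 8 kidney arrays (3.96) and HOXA13 on 3 of 4 ovary arrays (4.55).

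Kidney HOX levels were high for genes of clusters A, B and D, and 2 of the 3 cluster C genes taken by name were measured in kidney. Of the genes named by transcript, HOXC6 was above background on all 8 kidney arrays (median 9.28). Its median was higher in ovary, at 9.40 with all 4 arrays above background. HOXA10 had a kidney median of 8.03, also on 8 arrays, its highest tissue. HOXC5, HOXC12 and HOXC13 had kidney medians of 3.5, 2.86 and 2.48, with 0, 1 and 0 arrays above background. In clusters A and B, HOXA6 had a median of 10.22, HOXB4 of 10.18 and HOXB6 of 11.95. In cluster D, HOXD4 had a median of 10.83, HOXD8 of 11.57 and HOXD9 of 10.41. The ovary was the tissue with the next highest median for HOXD4 (10.15), HOXD8 (10.09), HOXD9 (9.44), HOXA6 (8.90) and HOXA7 (8.06).

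**Figure D1:**
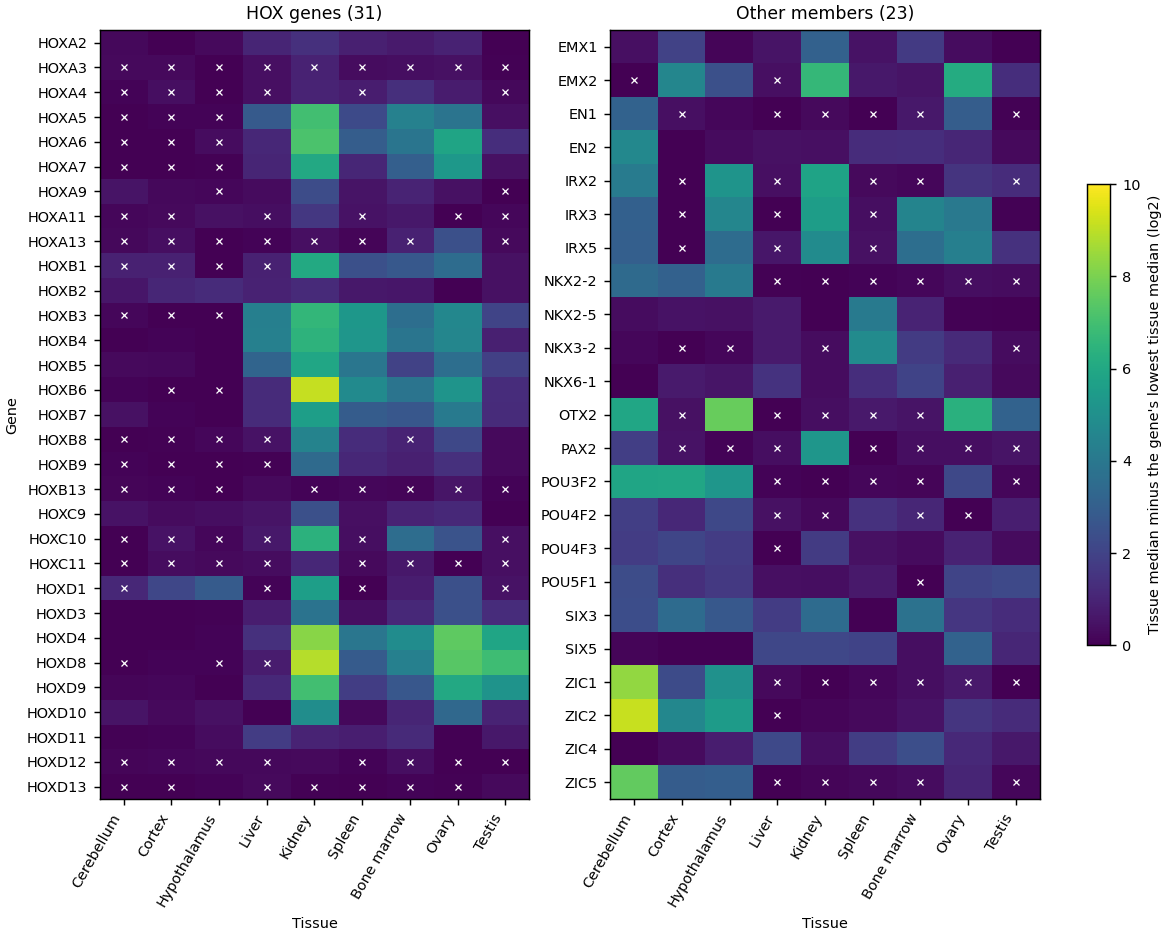
Tissue map of 31 HOX genes and of 23 genes of the other families. The colour gives each tissue's median log2 intensity (1 week to 4 months) minus the gene's lowest tissue median, and a white cross marks a tissue in which no array was well above background. Kidney is the highest column for 21 of the 23 HOX genes that were measured in at least 1 tissue, and the 3 brain regions are dark for most HOX genes.

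The 3 brain regions together were set against liver, kidney, spleen and bone marrow, each averaged for an age and sex, which gave 8 brain and 8 organ values per gene. A gene was called when limma gave a Benjamini-Hochberg adjusted p, taken over all genes, under 0.05 with at least a 2-fold difference. Of the 96 members 15 were higher in brain, while 13.4% of all genes were called higher, and 20 were lower, while 13.6% of all genes were called lower. The median difference was -0.19 over the members and -0.12 over all genes.

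All 17 HOX genes that were called were lower in brain, 8 of the 10 in cluster B, 5 of 9 in cluster D, 3 of 10 in cluster A and 1 of 3 in cluster C. HOXB4 ranged from 3.61 to 3.99 in brain with a median of 3.75, and from 8.34 to 8.97 with a median of 8.78 in the other organs. The groups did not overlap, and the difference was -4.97 ± 0.08 (SE, n = 8 and 8, limma adjusted p = 1.0e-19). HOXB3 ranged from 1.91 to 2.46 (median 2.06) in brain, where it was well above background on none of 24 arrays, and from 6.49 to 7.18 (median 6.99) elsewhere, at least 14.5-fold higher outside the brain (adjusted p = 2.0e-18). HOXA6 was at least 11.6-fold and HOXA5 at least 8.67-fold lower in brain, with no brain array well above background. HOXB6, HOXD4 and HOXD8, above background on 1, 5 and 1 of the 24 brain arrays, had fitted differences of -4.75, -4.54 and -4.11 that rest on brain values mostly in the background, and HOXB5, measured on all of them, by -3.37.

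Outside the clusters, the ZIC and POU families led the genes higher in brain. ZIC proteins are zinc finger factors of the dorsal neural tube and cerebellum and carry no homeobox. ZIC2 ranged from 9.00 to 10.1 (median 9.41) in brain and from 2.99 to 3.59 (median 3.27) in the other organs, without overlap, a difference of 6.19 ± 0.14 (SE, adjusted p = 1.1e-17). POU3F2, a POU factor of neurons and their progenitors, ranged from 7.69 to 8.14 (median 7.96) against 2.28 to 2.54 (median 2.43), at least 26.8-fold higher in brain (adjusted p = 3.2e-21).

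ZIC1 was at least 21.7-fold and ZIC5 at least 18.0-fold higher in brain, each well above background on no array of the other organs. NKX2-2, a factor of the ventral neural tube and of oligodendrocyte precursors, was at least 7.38-fold higher, and OTX2, which patterns forebrain and midbrain, at least 8.83-fold. OTX2 was well above background on 14 of the 24 brain arrays and on no cortex array, so its brain mean does not hold for each region. ZIC4 went the other way and was lower in brain, by -1.30 ± 0.10 (SE, adjusted p = 1.7e-09), with brain values of 5.65 to 6.15 below organ values of 6.85 to 7.49. NKX3-2 (-1.78) and SIX5 (-1.59) were the other members outside the HOX clusters that were lower in brain.

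**Figure D2:**
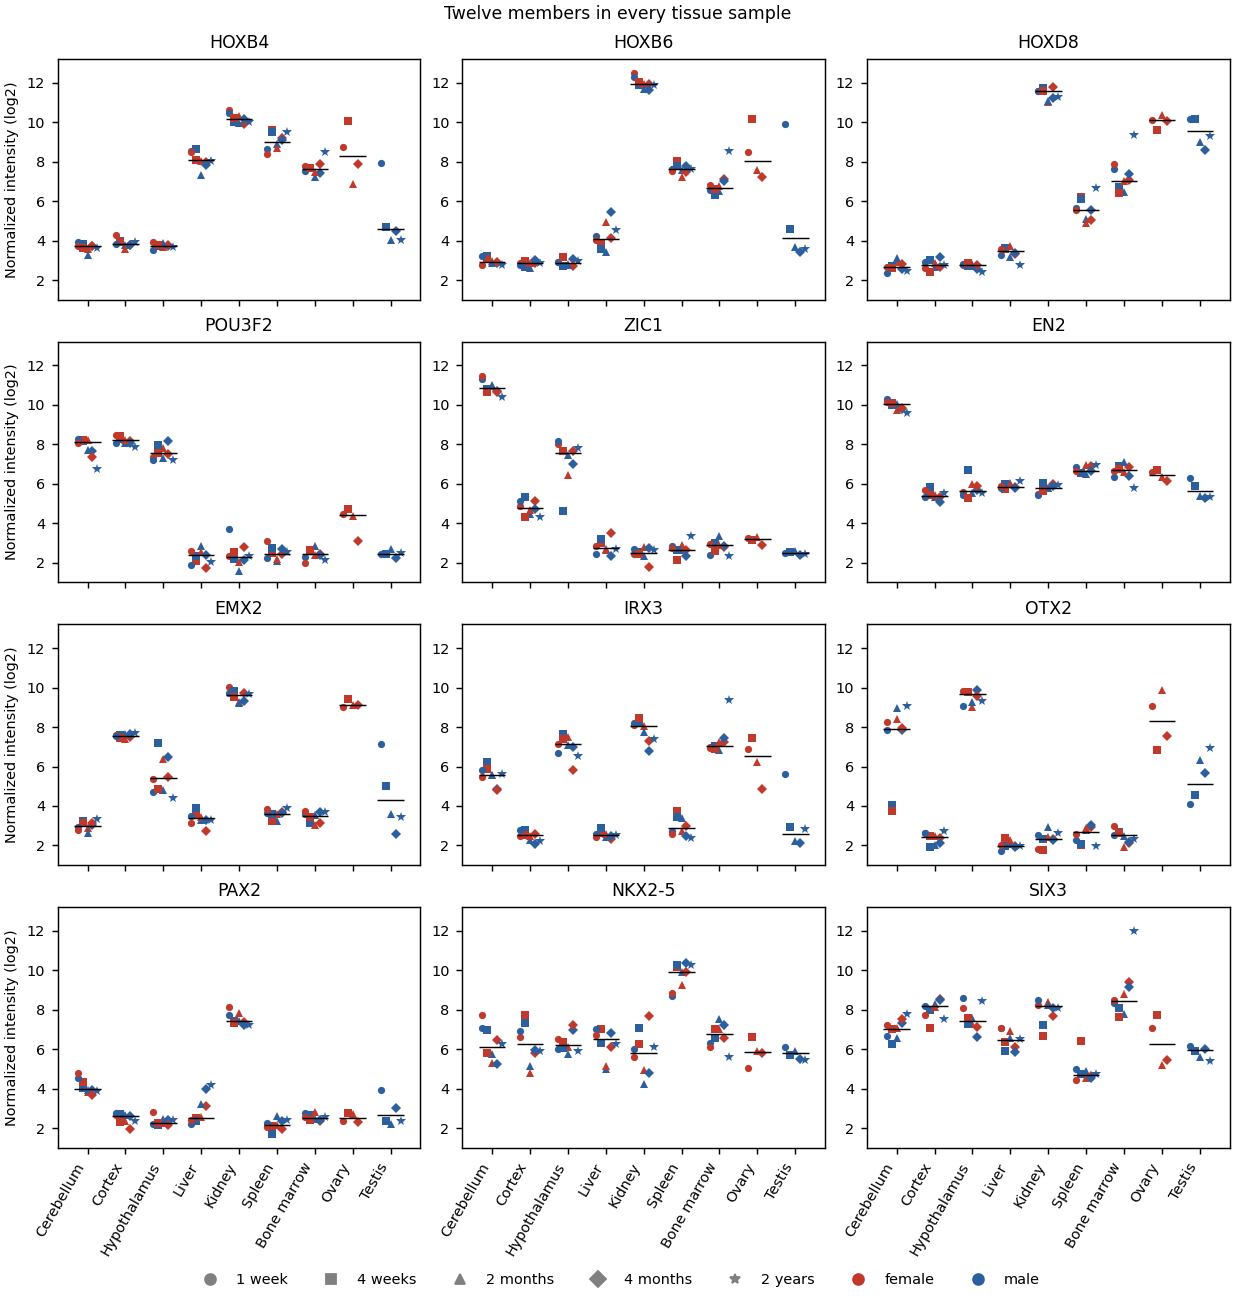
Log2 intensity of 12 members in every tissue sample, with a line at the median of the samples up to 4 months. Colour gives sex (red female, blue male) and the marker shape gives age. HOXB4, HOXB6 and HOXD8 were lowest in the 3 brain regions and highest in kidney, and NKX2-5 was highest in spleen.

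Within the brain, the cerebellum was compared with the cortex over 8 samples each. Of the members 10 were higher in cerebellum (4.47% of all genes were called higher) and 4 were lower (5.55% of all genes). ZIC1 ranged from 10.66 to 11.46 (median 10.88) in cerebellum and from 4.33 to 5.32 (median 4.79) in cortex, without overlap, a difference of 6.11 ± 0.15 (SE, adjusted p = 1.0e-16). EN2, which with EN1 shapes the midbrain and cerebellum, ranged from 9.76 to 10.28 (median 10.03) against 5.10 to 5.82 (median 5.38), a difference of 4.57 ± 0.10 (adjusted p = 3.1e-17). A second set of EN2 probes, named by transcript, was well above background on all 8 cerebellum arrays at a median of 6.69 and on no cortex array.

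ZIC5 and ZIC2 were higher in cerebellum by 4.66 and 4.52, IRX2 by at least 8.91-fold, IRX5 by at least 5.72-fold, EN1 by at least 5.24-fold and IRX3 by at least 4.89-fold, the last 4 on no cortex array above background. The Iroquois (IRX) genes take part in the regional division of the neural plate and in nephron segmentation. EMX2, a cortical patterning factor, was well above background on no cerebellum array, with values of 2.61 to 3.26 (median 2.97) against 7.40 to 7.66 (median 7.55) in cortex, and was at least 20.7-fold lower (adjusted p = 4.0e-18). Its relative EMX1 was lower by -1.65 ± 0.11 (SE).

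The hypothalamus was compared with the cortex in the same way, with 6 members higher (2.14% of all genes) and 2 lower (2.50% of all genes), and with none of the 32 HOX genes called. OTX2 ranged from 9.02 to 9.88 (median 9.67) in hypothalamus and from 1.94 to 2.64 (median 2.44) in cortex, where no array was above background, at least 78.0-fold higher in hypothalamus (adjusted p = 2.2e-16). IRX2, IRX3 and IRX5 were higher by at least 15.2-fold, 13.8-fold and 8.08-fold, each above background on all 8 hypothalamus and no cortex arrays. EMX1 was lower without overlap, at 3.89 to 4.31 (median 4.06) against 5.58 to 6.17 (median 5.91).

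**Figure D3:**
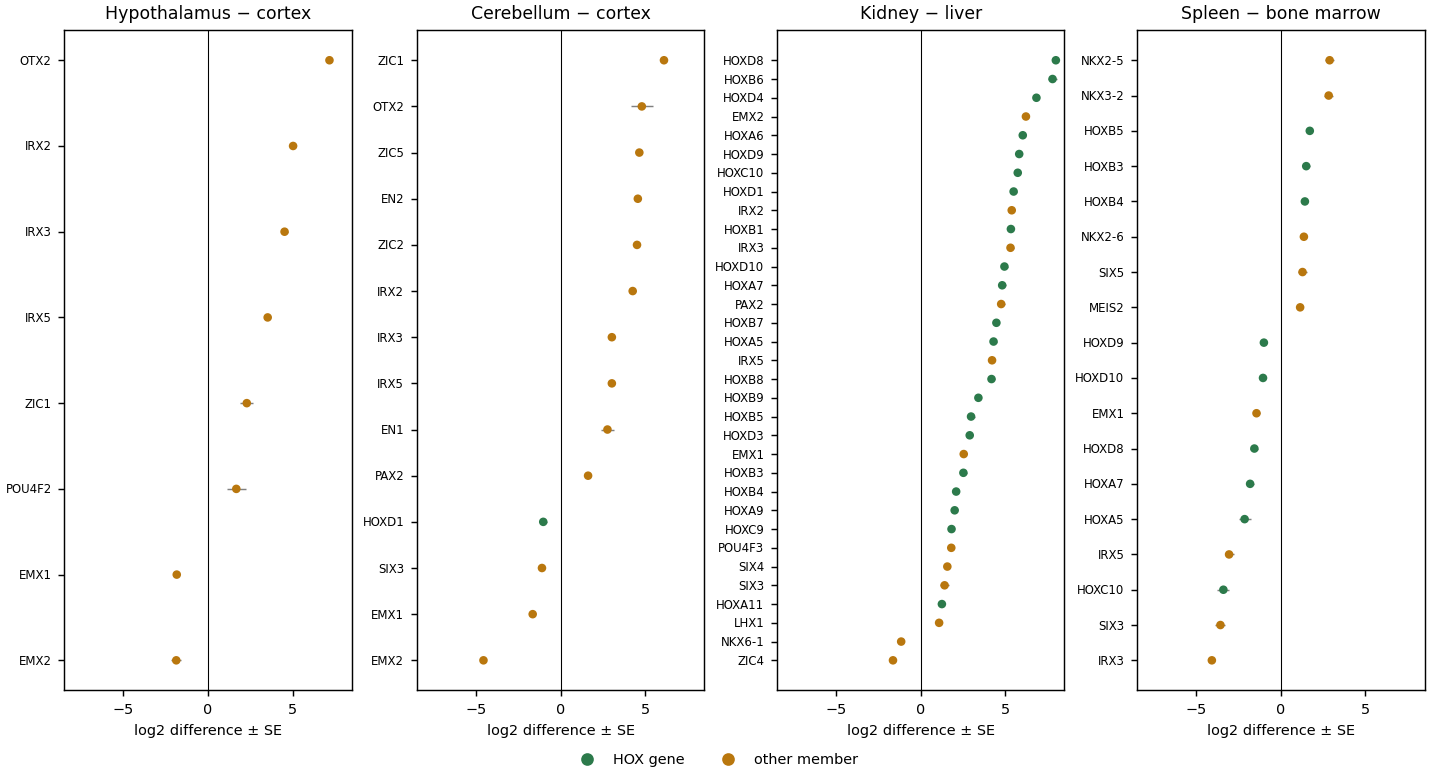
Log2 difference ± SE of the called members shown in hypothalamus against cortex, cerebellum against cortex, kidney against liver, and spleen against bone marrow (8 samples per tissue). In kidney against liver 31 points lie above 0 and 2 below it, and the points are fitted differences, also where a gene was not above background in one of the tissues, such as HOXD8 in liver.

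Both regional comparisons held samples that stood apart. In the cerebellum OTX2 was 3.76 in the 4-week female and 4.06 in the 4-week male, while the other 6 samples lay between 7.84 and 8.98 and the 2-year male at 9.05. The same 4-week samples had the highest EN1, 7.36 and 7.17, against 4.30 to 5.63 in the others, while EN2 was 10.11 and 10.01 in them and 9.76 to 10.28 in the others. The choroid plexus markers on the array (TTR, KCNJ13 and CLIC6, 3 of 5 listed) lay between 3.28 and 4.92 in all 8 samples, and the part of tissue content in the difference was not tested. OTX2 was higher in cerebellum than in cortex by 4.80 ± 0.63 (SE, adjusted p = 3.5e-06) and by 5.88 without the 4-week samples, and 13 of the 14 members stayed called, all but SIX3 (-0.996, under 2-fold).

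In the hypothalamus POU4F2, a POU factor of sensory and retinal neurons, was 7.76 in the 4-week male, 7.33 in the 2-month female and 6.73 in the 4-month male, and between 3.49 and 4.62 in the other 5 samples. In the same order these 3 samples had EMX2 at 7.21, 6.37 and 6.47 (4.72 to 5.46 in the others), ZIC1 at 4.64, 6.46 and 6.98 (7.45 to 8.15) and CALB2 at 6.70, 7.49 and 8.13 (8.67 to 10.4), whose part in the differences was not tested. OTX2 did not separate them. POU4F2 overlapped between hypothalamus and cortex, with a difference of 1.67 ± 0.57 (SE, adjusted p = 0.036) that became 0.47 (adjusted p = 0.26) without the 3 samples and had an adjusted p of 0.066 with age and sex as a block. ZIC1 overlapped too (2.29 ± 0.38, adjusted p = 1.3e-04) and reached 2.95 without them, and EMX2 went from -1.88 to -2.49. The 2 POU4F2 probes used correlated at 0.48. A second set of POU4F2 probes, named by transcript, had a hypothalamus median of 2.20, with 3 of 8 arrays above background. It correlated at 0.69 with the first over the samples.

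**Figure D4:**
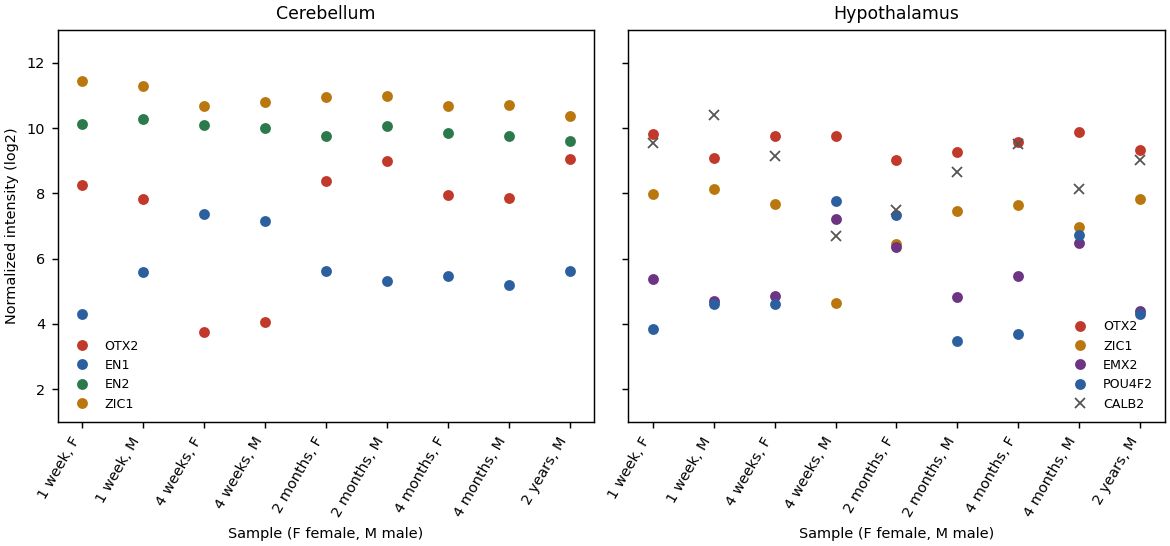
Log2 intensity of regional genes in each cerebellum sample (left) and hypothalamus sample (right), ordered by age and sex, with CALB2 shown as a cross. The 4-week cerebellum samples have OTX2 at 3.76 and 4.06 beside EN1 above 7, and the 3 hypothalamus samples with high POU4F2 have the lowest ZIC1 and CALB2.

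Kidney and liver, an organ of intermediate mesoderm and one of endoderm, differed in 34 members. In kidney 32 were higher (9.28% of all genes), 21 of them HOX genes, and 2 were lower (7.91% of all genes). The median difference was 2.71 over the 32 HOX genes, -0.04 over the 64 other members and -0.01 over all genes. HOXD8 ranged from 11.00 to 11.77 (median 11.57) in kidney and from 3.17 to 3.74 (median 3.46) in liver, where no array was above background, at least 228-fold higher in kidney (adjusted p = 2.5e-19). HOXB6 ranged from 11.64 to 12.50 (median 11.95) against 3.40 to 5.47 (median 4.08), a fitted difference of 7.80 ± 0.24 (SE, adjusted p = 4.1e-15) with 3 of 8 liver arrays above background. Neither gene overlapped between the tissues.

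HOXD4 and HOXD9, above background on 7 and 8 of the 8 liver arrays, were higher by 6.84 and 5.82, HOXA6, above background on 1 of them, had a fitted difference of 6.03, HOXC10 by at least 22.7-fold and HOXD1 by at least 22.0-fold. HOXB4 was measured in both tissues at 9.92 to 10.64 (median 10.18) and 7.30 to 8.64 (median 8.07), a difference of 2.09 ± 0.17 (SE). Of the other families, EMX2, which the urogenital system requires, was at least 62.4-fold higher (9.23 to 10.03 with a median of 9.63, against 2.74 to 3.89 with a median of 3.37). PAX2, which directs nephron formation, was at least 16.2-fold higher (7.23 to 8.13 with a median of 7.41, against 2.22 to 3.98 with a median of 2.53), and IRX3, IRX2 and IRX5 were at least 20.9-fold, 20.2-fold and 15.7-fold higher. ZIC4 (-1.64 ± 0.21) and NKX6-1 (-1.16 ± 0.14) were lower in kidney than in liver, with 8 of 8 age and sex pairs in that direction.

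The renal pelvis of the 2-year-old male, 1 sample, was set beside the kidney of the same age. At 4-fold or more, and above background at one end, no member was higher in the pelvis (0.965% of all genes were) and 1 was lower (1.37% of all genes), EMX1 at 4.60 against 6.94. The kidney repeats had an SD of 0.06 for EMX1, which is technical only. Within 2-fold lay 28 of 32 HOX genes and 85 of 96 members, beside 89.9% of all genes, with HOXD8 at 11.74 and 11.26 and HOXB4 at 10.65 and 10.01.

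Spleen and bone marrow, both blood-forming organs early in life, differed in 19 members, 8 higher in spleen (5% of all genes) and 11 lower (5.42% of all genes). NKX2-5 and NKX3-2, which the embryonic spleen requires, led the first group. NKX2-5 ranged from 8.68 to 10.36 (median 9.92) in spleen and from 6.09 to 7.53 (median 6.79) in marrow, without overlap, a difference of 2.88 ± 0.27 (SE, adjusted p = 6.5e-07). NKX3-2 ranged from 6.78 to 8.17 (median 7.65) against 4.18 to 5.41 (median 4.54), a difference of 2.83 ± 0.25 (adjusted p = 3.0e-07). The cluster B genes HOXB5 (1.71), HOXB3 (1.499) and HOXB4 (1.42) were higher in spleen, whereas HOXA5 (-2.15), HOXA7 (-1.82), HOXD8 (-1.57), HOXD10 (-1.06), HOXD9 (-1.01) and HOXC10 were lower.

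IRX3 was at least 14.2-fold lower in spleen (2.49 to 3.73 with a median of 2.87, against 6.84 to 7.43 with a median of 7.03). SIX3, a factor of the anterior forebrain and eye, ranged from 4.42 to 6.41 (median 4.69) against 7.62 to 9.42 (median 8.44), a difference of -3.58 ± 0.30 (SE, adjusted p = 1.3e-07). IRX5 was at least 7.38-fold and HOXC10 at least 5.45-fold lower. The marrow samples held markers of other cell types, with medians of 9.12 for IBSP and 6.65 for SP7 of bone and 11.78 for FABP4 of adipocytes, against 5.62, 3.96 and 7.64 in spleen. MYL1 of skeletal muscle was 11.28 and 11.22 in the 1-week marrows and 3.56 to 5.56 in the others, and the part of these cells in the differences was not tested. HOXC10 was highest in the same 1-week marrows, at 6.65 and 7.23 against 4.03 to 5.71. Without the 1-week samples of both tissues 19 members were called, 18 of them the same genes, and HOXC10 differed by -2.90. MEIS2, a HOX cofactor, was higher in spleen by 1.14, but not after cross-hybridizing probes were left out (0.53, adjusted p = 0.076).

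The marrow of the 2-year-old male lay outside the range of the younger marrows by more than 1 log2 unit for 14 members, all higher, 11 of them HOX genes. Of all genes 6.23% were higher and 5.23% lower by this measure. SIX3 was 12.0 there against 7.62 to 9.42, HOXD10 8.90 against 5.55 to 7.11 and HOXA5 8.84 against 5.63 to 7.54. In the same sample the erythroid factor KLF1 was 2.36 against 11.09 to 12.45 and the adipocyte genes FABP4 and PLIN1 were 15.99 and 11.12 against 10.33 to 14.86 and 4.63 to 7.81. This was 1 sample, on slides that held 2-year-old tissues only and from another site and feed. Age, slide, site, feed and cell content therefore cannot be told apart. In cerebellum, cortex, hypothalamus, liver, kidney, spleen and testis 95 or 96 of the 96 members at 2 years lay within 1 unit of the younger range, as did 99 to 99.9% of all genes, and in testis that range spans the values of all ages from 1 week to 4 months.

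The gonads were measured in 1 sample per age, without replicates, and are given as values. Members were counted when their values at 1 week and 4 months differed by 4-fold or more, with the gene well above background at 1 end. By this rule 18 members were lower in the testis at 4 months (6.46% of all genes), 14 of them HOX genes, and 3 were higher (9.08% of all genes). HOXB6 was 9.92 in the testis of the 1-week-old, 4.59 in that of the 4-week-old, and then 3.67, 3.40 and 3.58 at 2 months, 4 months and 2 years, at least 91.7-fold lower at 4 months. HOXA5 was 7.24, 2.86, 2.19, 1.87 and 2.72 at these ages and EMX2 was 7.16, 4.99, 3.59, 2.59 and 3.42. Most of the fall of HOXB6 and HOXA5 lay between 1 and 4 weeks.

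Not all HOX genes followed. HOXD8 was 10.17 at 1 week and 8.57 at 4 months, and HOXD9 was 9.10 and 8.10. LHX4, a LIM homeobox factor known from the pituitary, was 3.07, 2.70, 7.64, 5.79 and 7.13 from 1 week to 2 years, with both of its probes giving the same course, and IRX4 was 2.87, 2.28, 3.86, 6.06 and 4.33. The late germ cell gene PRM1 was 3.18 and 2.88 at 1 and 4 weeks and 15.94 or higher from 2 months on, the meiotic gene SYCP3 was 7.91 at 1 week and 10.33 to 10.70 later, and INSL3 of Leydig cells was 15.92 or higher at all ages. The part of cell composition in these courses was not tested.

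In the ovary 12 members were lower at 4 months than at 1 week by the same 4-fold rule (2.16% of all genes), 8 of them HOX genes, and 0 were higher (1.18% of all genes). Measured against the lowest signal well above background, HOXC10 was at least 3.21-fold and IRX2 at least 2.24-fold lower, short of 4-fold. HOXA7 was 8.95, 7.35, 8.77 and 5.79 from 1 week to 4 months and HOXA5 was 6.75, 8.21, 5.22 and 4.03. HOXD8, in contrast, was 10.10, 9.61, 10.34 and 10.08, and HOXD4 10.27, 10.18, 10.11 and 9.98. OTX2 was measured at 9.07, 6.83, 9.87 and 7.57, far above its cortex and kidney levels. The 4-month ovary also had the lowest SYCP3 (5.54 against 9.20 to 9.75) and the highest STAR, a steroidogenic gene (9.39 against 1.82 to 2.34).

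**Figure D5:**
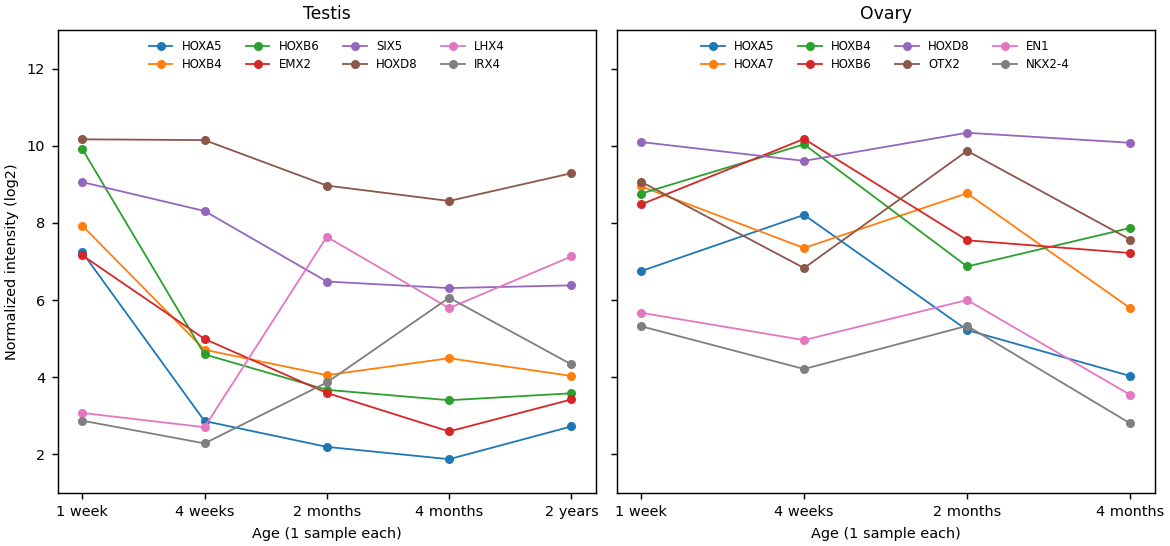
Log2 intensity by age in testis (5 samples) and ovary (4 samples), 1 sample per age, so that no error can be given. HOXB6 in testis goes from 9.92 at 1 week to 4.59 at 4 weeks, while HOXD8 stays at 8.57 or higher in testis and at 9.61 or higher in ovary.

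Age was tested within each tissue, with the 4 samples of 2 and 4 months (older) against the 4 of 1 and 4 weeks (younger). Few members changed. The counts, each followed by the share of all genes called in either direction, were 3 in cerebellum (2.27%), 1 in cortex (1.69%), 0 in hypothalamus (0%), 0 in liver (1.79%), 1 in kidney (8.41%), 3 in spleen (3.09%) and 1 in bone marrow (0.792%). At an unadjusted p under 0.05, limma gave 12 of the 96 members in hypothalamus, where 9.54% of all genes passed, and 11 in liver, where 17.6% did. In kidney it gave 31 (32.3%, against 27.8% of all genes) and in cerebellum 20 (20.8%, against 20.1%). The counts were 13 in cortex (18.6% of all genes), 11 in spleen (21.4%) and 9 in bone marrow (14.4%).

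In the spleen HOXA5 was 5.60 and 4.91 at 1 week, 4.90 and 4.99 at 4 weeks, 3.56 and 3.57 at 2 months, and 3.83 and 3.38 at 4 months (male first). All 4 younger spleens lay above all 4 older ones, which were not above background, and HOXA5 was at least 2.85-fold lower in the older group (adjusted p = 0.0090). Leaving out each sample in turn gave adjusted p values of 0.0105 to 0.0467 by limma. KLF1 fell over the same samples, from 12.58 and 12.44 at 1 week to 3.32 and 3.35 at 4 months, and its part in the HOXA5 difference was not tested. HOXA7 (-0.94) and HOXD3 (-0.80) were also lower in older spleens, but missed the threshold without 5 and 6 of the 8 samples. The number of members called in spleen was 1 without any one of the 2-month and 4-month samples and 5 without the 4-week female.

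In the kidney HOXA7 was 8.23 and 8.22 at 1 week, 8.49 and 8.45 at 4 weeks, 9.03 and 9.00 at 2 months, and 9.14 and 9.30 at 4 months (male first). It rose by 0.77 ± 0.13 (SE, adjusted p = 0.012), again without overlap, and stayed past the threshold when any 1 sample was left out (adjusted p = 0.00745 to 0.0496). The count in kidney was 19 without the 4-month female and 2 without either 4-week sample or the 2-month female. For runs with 1 sample left out, in this and the other tissues, the share of all genes called is not reported. Such counts are therefore not set against all genes.

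NKX2-5 in cortex was 6.90 and 6.62 at 1 week, 7.34 and 7.76 at 4 weeks, 5.14 and 4.78 at 2 months, and 5.94 and 5.80 at 4 months (male first), a difference of -1.74 (adjusted p = 0.031) that missed the threshold without 6 of the 8 samples, all but the 1-week and 4-month females. In cerebellum IRX2 (-0.84), IRX5 (-0.64) and ZIC4 (-0.98) were lower in the older group, and in bone marrow PAX9 was (-1.17), whose probes correlated at 0.223 only. The cerebellum count was 6 without the 4-week female and 0 without any other sample but the 2-month male, and the bone marrow count was 0 without any sample but the 4-week female. One member was called in hypothalamus without the 4-week male and 1 in liver without the 2-month female.

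Averaged over the 7 tissues per age and sex, 4 members passed (12.2% of all genes), EMX1 (0.33), LHX9 (0.26) and NKX6-3 (0.39) higher and IRX5 (-0.29) lower in the older group. None passed without the 1-week male, the 1-week female or the 2-month male, and 2 without the 4-week male, the 2-month female or the 4-month male. The NKX6-3 value rests on 1 probe. A second set of NKX6-3 probes, named by transcript, had tissue medians of 2.43 to 3.11 with no array above background. Its correlation with the first over the samples was -0.24, so the level of NKX6-3 depends on the probe. Between males and females no member was called by limma, at an adjusted p under 0.05 (0.0211% of all genes) or at an unadjusted p under 0.05 (1.38% of all genes). Age was not entered in this fit, although each age gave a male and a female mean. The spread between ages therefore counted as error, and small sex differences could be missed.

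Whether the age difference itself differed between the 7 tissues was tested as an interaction, which was called for 13 members (18.6% of all genes), below the share of all genes. HOXA5 had the smallest adjusted p among them, 1.8e-04, with -1.51 in spleen and 0.61 in bone marrow, followed by PBX2 (8.1e-04), a HOX cofactor, with 0.63 in spleen and -0.49 in liver. HOXA7 (0.0032) went from -0.94 in spleen to 0.77 in kidney. With the slide as a block 8 members were called, 6 of them shared, which were HOXA5, HOXA7, NKX1-2, NKX2-5, PAX2 and PBX2. OTX2 (0.023) differed by 2.33 in cerebellum, where its 1-week samples (7.84 and 8.26) lay within or near the older range of 7.87 to 8.98 and its low values were those at 4 weeks. Without those samples its adjusted p was 0.042, and ZIC4 lost its call (0.14).

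Tissue selectivity was also described by the Gini index over linear tissue means, for which 0 is an even level and 1 a single tissue. The index was at least 0.7 for 9 members (9.38%), against 5.26% of all genes, and these were HOXA6, HOXB6, HOXC10, HOXD4, HOXD8, OTX2, ZIC1, ZIC2 and ZIC5. At the other end PAX1, whose product patterns the vertebral column and thymus, lay between 9.89 and 11.17 in the 9 tissues, and DLX5, a factor of forebrain and bone, between 13.79 and 14.70. A second set of DLX5 probes had tissue medians between 2.30 and 3.97, with a correlation of -0.07 with the first over the samples, so the level of DLX5 depends on the probe. Among the members measured in at least 1 tissue, probes of 1 gene also disagreed (a correlation under 0.3) for HOXB2, LHX3, MEIS2, OTX1, PAX3 and POU6F1, while those of HOXA5, HOXB4, HOXB6, HOXD8, OTX2, POU3F2 and ZIC1 correlated at 0.98 or more.

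Genes that regulate or accompany the HOX code were taken from a list of 41, of which 28 were on the array. In brain 3 were higher and 3 lower (10.7% each way, against 13.4% and 13.6% of all genes), among them PKNOX2, a HOX cofactor (2.97 ± 0.12). In kidney against liver 2 were higher and 3 lower, among them the retinoic acid hydroxylase CYP26A1 (-2.33 ± 0.21), and in spleen against bone marrow 2 were higher and 1 lower. In hypothalamus and cerebellum against cortex 1 was higher in each, with 4 and 3 lower. In kidney these were 7.14% and 10.7% of the list (9.28% and 7.91% of all genes), in spleen 7.14% and 3.57% (5% and 5.42%), in hypothalamus 3.57% and 14.3% (2.14% and 2.5%) and in cerebellum 3.57% and 10.7% (4.47% and 5.55%).

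Of 65 other homeobox genes 50 were on the array, with 5 higher and 7 lower in brain, 5 and 4 in hypothalamus, 8 and 6 in cerebellum, 7 and 8 in kidney, and 2 and 6 in spleen. As shares of the list these were 10% and 14% in brain, 10% and 8% in hypothalamus, 16% and 12% in cerebellum, 14% and 16% in kidney, and 4% and 12% in spleen, beside the shares of all genes just given. TLX1, without which no spleen forms, was 8.20 ± 0.29 higher in spleen than in marrow. BARHL1, a factor of granule cell precursors, was higher in cerebellum than in cortex by 6.05. The liver factors ONECUT1 and PROX1 were lower in kidney than in liver by -5.53 and -3.72.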

How the data were processed

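RNA was labelled with 1 dye and hybridized to Agilent arrays, and the authors deposited the scanner output of Agilent Feature Extraction 11.5.1.1, named in the submitters' processing notes, with spot intensity values on a linear scale that were not normalized. The median intensity of each spot was used, after spots marked as outliers had been left out (33 to 624 per array). Intensity was background-corrected by normexp with offset 0 over 61289 gene spots and 308 negative control spots, quantile normalized and set on a log2 scale in limma 3.58.1 (R 4.3.3). Spots were averaged per probe and probes per gene, which gave 23723 genes. The median intensity per array was 27 to 89 and that of the negative controls 17 to 25, so that low genes are measured with little precision. Quantile normalization gives every array the same distribution, so a shift of all genes in a tissue would not be seen. The deposited value table of the authors, taken as log2, served only as an alternative: its columns correlated at 0.987 to 0.993 with the scanner values and its differences between arrays at 0.712 to 0.982, its column median was 4.57, and its normalization and centring stay unknown.

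Groups came from the labels. Tissues were compared over 8 samples each by limma with Benjamini-Hochberg adjustment over all genes, and ages by 4 against 4 samples. The labels do not say whether samples came from separate animals throughout, so p-values measure the spread between these samples. Same-aged samples of the same sex were checked for shared deviations, with correlations of 0.03 to 0.28 for hypothalamus and cortex, 0.175 to 0.349 for cerebellum and cortex, 0.19 to 0.36 for kidney and liver and -0.27 to 0.34 for spleen and bone marrow. A fold written as "at least" was used where no array of the dimmer group was well above background. It sets the mean of the brighter group against a mean over the dimmer one. On each array of the dimmer group, the higher of the gene's own value and the lowest signal well above background was taken. The fits were tested on simulated data. The genes, the marker lists and the 2 gene lists were chosen with earlier results of these data known. Genes named in a comparison are those called, up to 8 in each direction by the size of the difference, with relatives of the same family. Other called members, the samples that stood apart and the genes of the 2 lists were picked after their values were seen. Alternatives that left out cross-hybridizing probes, genes not well above background, or the samples that stood apart in cerebellum, hypothalamus and 1-week spleen and marrow were chosen after seeing the data. No sequence or genome coordinate was used here. Some genes counted in the totals are not reported here by name.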

Additional observations from a re-analysis of the deposited data

Results flagged for a closer look

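HOXD1 in the 2-month female kidney was 6.73, below the 7.81 to 8.57 of the other 7 kidneys, and HOXB5 in the 1-week female spleen was 6.42, below 7.10 to 7.33 in the others. Each lay apart from its group by Dixon's criterion, in 2 of 44 groups looked at, and chance gives about 1 in 20.

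The age difference differed between the 7 tissues by the interaction test in limma for 13 members (13.5%), below the 18.6% of all genes. Those named here are given with their Benjamini-Hochberg adjusted p values and their extreme tissue differences. With the slide as a block in the same test, DLX5 (0.299), HOXA11 (0.0853), IRX2 (0.109), OTX1 (0.0771), OTX2 (0.0542) and ZIC4 (0.0666) lost their calls. HOXA5 had 0.000179 (-1.51 in spleen, 0.61 in bone marrow), PBX2 0.000806 (-0.49 in liver, 0.63 in spleen) and HOXA7 0.00321 (-0.94 in spleen, 0.77 in kidney). PAX2 had 0.00707 (-0.58 in cerebellum, 0.85 in liver), NKX1-2 0.0146 (-0.61 in bone marrow, 0.44 in liver) and DLX5 0.0223 (-0.27 in liver, 0.66 in kidney). OTX1 had 0.0223 (-0.50 in cerebellum, 0.81 in kidney) and OTX2 0.0226 (-0.54 in bone marrow, 2.33 in cerebellum). NKX2-5 had 0.0329 (-1.74 in cortex, 0.59 in bone marrow), HOXA11 0.0351 (-0.43 in kidney, 0.53 in hypothalamus), ZIC4 0.0380 (-0.98 in cerebellum, 0.76 in spleen) and IRX2 0.0386 (-0.84 in cerebellum, 0.23 in bone marrow).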

How the results depend on the processing

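No result reversed its direction under any alternative run. Counts of called members moved by over 1.5 times as follows. With a normexp offset of 50 the count was 20 for brain, 7 for cerebellum against cortex, 7 for spleen against bone marrow, 1 for age in cerebellum, 4 for age in kidney and 0 for age in bone marrow, and 3 members had a Gini index of at least 0.7. At 4-fold it was 19 for brain, 5 for hypothalamus and 8 for spleen against bone marrow, and 3 members reached a Gini index of 0.8. For age in cerebellum it was 1 with the scanner's processed signal, median scaling or the deposited table, 0 with scaling to the 75th percentile, and 5 with either filter on dim genes or a trended variance. For age in kidney it was 3 with the processed signal, median scaling or the deposited table, 5 with the 75th percentile, and 4 without cross-hybridizing probes, with either filter or a trended variance. For age in bone marrow it was 0 with the processed signal, the 75th percentile, the probe median, the deposited table or the 2-year male added, and for age in spleen 1 with that male. Members detected by the well-above-background rule were 41 in ovary and 29 in testis. Leaving out 1 sample gave 0 to 6 for age in cerebellum, 0 to 1 in cortex, hypothalamus, liver and bone marrow, 1 to 19 in kidney, 1 to 5 in spleen and 0 to 5 over the 7 tissues. The shares of all genes in these runs are not reported.

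With age and sex as a replicate block, a pairing the labels do not tie to animals, 35 members were called in brain, 7 in hypothalamus, 14 in cerebellum, 34 in kidney and 19 in spleen. With sex as a block the age counts were 1 in spleen and 0 in bone marrow, and with the slide as a block the interaction was called for 8. Low signal over background limits the dim members, and the cause of the changes was not tested.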
